A study of Mus musculus with 11 samples.

Results

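Genes of the extracellular matrix, of the integrins that bind it and of the metalloproteases that cut it were examined in the neocortex of mouse embryos that lack synaptic activity. Members are the probes whose platform gene symbol names a collagen, laminin, integrin subunit, matrix metalloprotease (Mmp), tissue inhibitor of metalloproteases (Timp), Adam or Adamts protease, fibulin, fibrillin, Spock proteoglycan, syndecan, glypican or tenascin. Itgam, Col1a1 and the proteins that bind integrin beta chains were left out by rule. This gave 110 of the 6856 probes on the array, for 105 of 6041 named genes. The rule used names only and no measured value.

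Each of the 11 arrays compared RNA of a single null mutant embryo with RNA of pooled wild-type embryos, both of C57BL/6 background and both from neocortex at embryonic day 18. The null mutant is described in the record as synaptically silent. Cy3 labelled the null RNA of 6 embryos (arrays 1, 2, 6, 7, 8 and 10) and Cy5 that of 5 (arrays 3, 4, 5, 9 and 11). For arrays 1 and 6 a label gives the wild-type channel as day 14 and another label as day 18. The partner RNA was read as a common wild-type pool, so every comparison shares it and the spread among wild-type embryos was not measured. The comparison asks which transcripts differ when synapses are silent before birth.

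All values are deposited log ratios, taken as log2 of null over wild type. The sources used here state neither log base nor direction. The direction is likely rather than settled. It rests on Xist, the RNA of the inactive X chromosome of females, which lay between -7.37 and -4.18 on 6 arrays of both dye orientations and between 0.00 and 0.67 on 4, the split that single male and female embryos would give over a pool of both sexes. With the direction turned, every sign below would turn. Arrays carried 4822 to 6316 values each, and the lowest Spearman correlation between any pair of arrays was -0.08. Array 4 had the fewest values and the widest spread (SD 0.563 over probes, against 0.266 to 0.360 on the others). A ratio carries no level, so whether neocortical or other marker genes were present could not be read from these values. In whole tissue, fewer cells of a type and less RNA per cell cannot be told apart.

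The extracellular matrix of the developing cortex is made by several cell types. Collagen IV and laminins form the basement membranes of blood vessels and of the pial surface, to which radial glia attach. Fibrillar collagens, fibulins and fibrillins are made largely by meningeal and perivascular cells, whereas the matrix around neurons is rich in proteoglycans and tenascins. Cells bind matrix through integrins, which are pairs of an alpha and a beta chain, and through the membrane proteoglycans syndecan and glypican. Mmp and Adamts proteases cut matrix, Adam proteases shed membrane proteins, and Timp proteins inhibit them.

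Members changed in both directions, mostly by small amounts. Of the 105 member genes, 72 had values on enough arrays to be tested (at least 8, with at least 3 of each dye orientation). Of these, 17 rose, 7 fell and 48 did not pass the threshold, an adjusted p of 0.05 over all 4812 genes tested, of which 28.8% passed. The share that rose was 23.6%, beside 14.5% of all genes tested, and the share that fell was 9.72%, beside 14.3%. Counted by probe, 18 of 75 rose and 7 fell, beside 14.7% and 14% of 5399 probes (28.6% in either direction). The same sign on every array with a value was seen in 9 of the 72 members (12.5%), beside 9.27% of all genes. The median member had a log2 ratio of 0.052, beside -0.005 for all genes. Among genes with values on all arrays the member median was -0.014, beside -0.02. Ratios of the members that rose lay between 0.18 and 0.51, and of those that fell between -1.41 and -0.23. Only Spock3 and Col19a1 changed by more than 1.5-fold. Without arrays 3, 4 and 10, 27 of 78 tested members rose and 7 fell, beside 18.6% and 16.2% of 4836 genes. Called higher there but not over all arrays were Col14a1, Col15a1, Itga5, Itgb4, Itgb6, Lama5, Lamb2, Lamc1, Mmp14, Spock2 and Timp3. Without arrays 3, 4, 5 and 10, a choice made after seeing the data, 23 of 64 rose and 4 fell, beside 20.2% and 19.1% of 4298 genes. Both fits without these arrays leave out low values of several members, so higher calls in them follow in part from that choice. An exact sign-flip permutation test over arrays called 17 members, all among the 24, beside 21.6% of all genes.

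**Figure D1:**
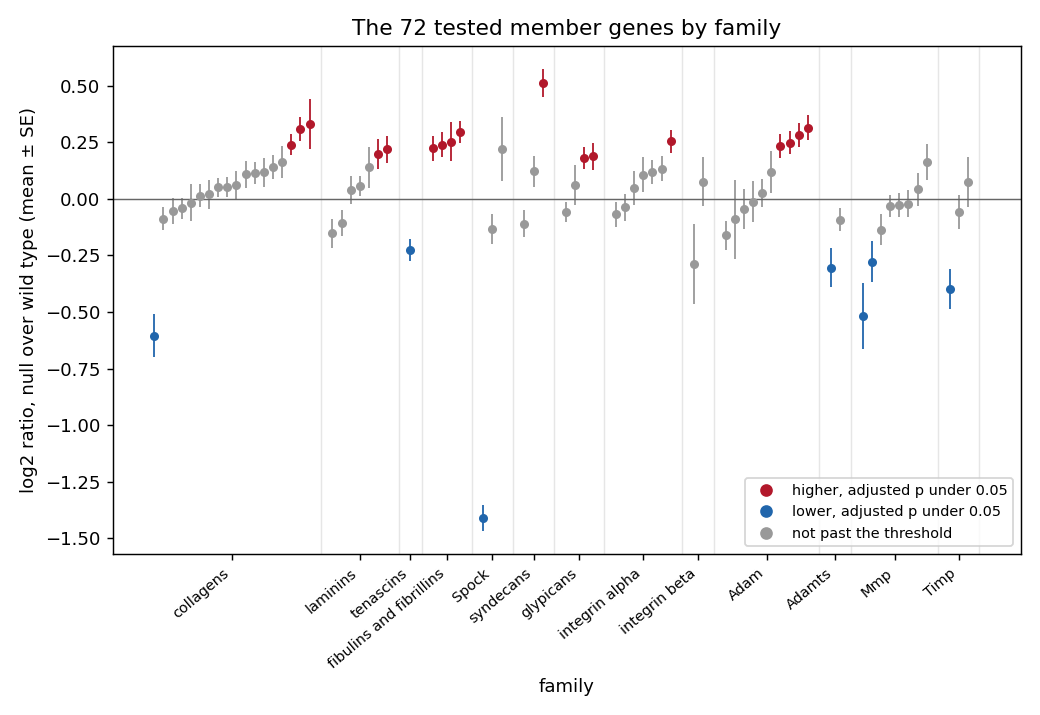
Log2 ratio of null over wild type (vertical axis, mean ± SE of the fitted model, 8 to 11 arrays) of each of the 72 tested member genes, grouped by family along the horizontal axis. Red points rose, blue points fell and grey points did not pass; Spock3 lies at -1.41, far below the other members, and the 4 fibulins and fibrillins lie together between 0.22 and 0.29.

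The proteoglycan Spock3 had the lowest ratio of all members and the 6th lowest of the 4812 genes tested. Spock proteins, also called testicans, are secreted proteoglycans of the brain that carry heparan sulfate chains. Spock3 values ran from -1.75 to -0.97 with a median of -1.40, and all 11 arrays were below 0. With the null RNA in Cy3 the range was -1.75 to -1.21, and with it in Cy5 -1.40 to -0.97. These ranges overlap only through array 10, at -1.21 in Cy3. The means were -1.61 in Cy3 and -1.21 in Cy5, with a limma dye term p of 0.0027 (adjusted p = 0.072). The fitted ratio, which weights both orientations equally, was -1.41 ± 0.06 (SE, n = 11, limma adjusted p = 2.2e-09), which is 2.66-fold lower if the values are log2. The exact sign-flip permutation test over arrays gave the smallest two-sided p that 11 arrays allow, 0.000977 (adjusted p = 0.014).

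The other Spock genes did not pass. Spock1 had a ratio of -0.13 ± 0.07 (n = 11, adjusted p = 0.155), with values from -0.54 to 0.50. On the Cy3 arrays alone Spock1 passed, at -0.33 (adjusted p = 0.012), while the Cy5 arrays gave 0.07. The Spock2 ratio was 0.22 ± 0.14 (n = 10, adjusted p = 0.262), and its values ran from -0.86 to 1.36. Its probes 1024 and 1185 had the same sign on each of the 9 arrays where both had a value, at 1.40 and 1.31 on array 1 and 0.52 and 0.65 on array 7, though on array 3 they were far apart, at -0.46 and -1.26. Spock2 was thus well above 0 on some arrays and well below on others, whereas Spock3 was low on all. It passed on the Cy3 arrays alone, at 0.58 (adjusted p = 0.021), while the Cy5 arrays gave -0.14. It also passed without arrays 3, 4 and 10, at 0.41 (adjusted p = 0.015). Its values on arrays 3 and 10 were -0.86 and -0.09, so leaving them out raised the ratio.

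**Figure D2:**
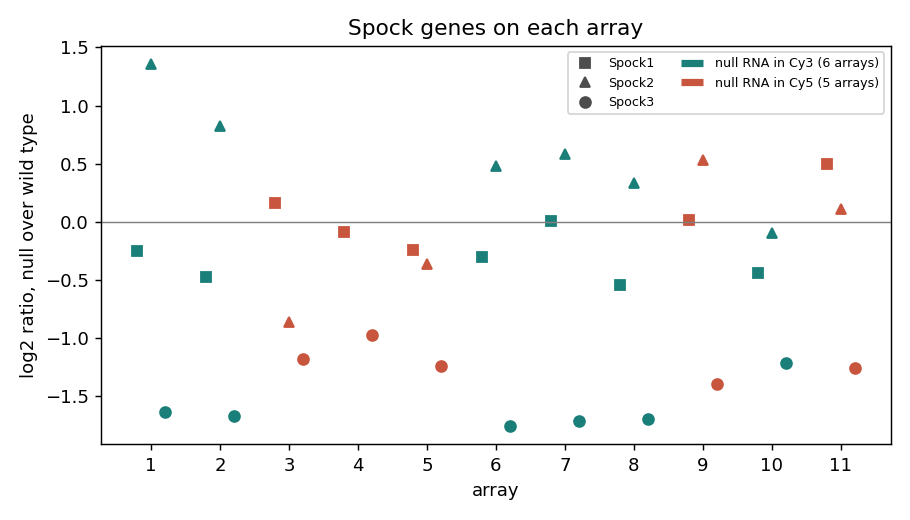
Log2 ratio of null over wild type (vertical axis) of Spock1 (squares), Spock2 (triangles) and Spock3 (circles) on each of the 11 arrays (horizontal axis), coloured by the dye of the null RNA. All Spock3 values lie between -1.75 and -0.97, while Spock1 and Spock2 scatter on both sides of 0; array 4 has no value for Spock2.

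The 250 bases before the start site are shown for the Spock genes, because Spock3 differs most among paralogs, and for Sdc4, the member with the highest ratio. They come from RefSeq (build GRCm38.p6); Spock3 has 2 starts listed and the most upstream is used. Capitals mark matches, on either strand, to any of 4 motifs, namely the CRE half-site TGACG, the AP-1 site TGANTCA, the GC box GGGCGG and the TATA box TATAAA.

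Spock3 promoter, chr8:62950982-62951231, plus strand: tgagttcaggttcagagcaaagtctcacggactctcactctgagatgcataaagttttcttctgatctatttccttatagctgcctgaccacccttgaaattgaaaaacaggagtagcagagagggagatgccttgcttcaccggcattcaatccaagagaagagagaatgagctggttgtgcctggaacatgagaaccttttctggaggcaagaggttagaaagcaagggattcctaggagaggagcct

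Spock1 promoter, chr13:57908333-57908582, minus strand: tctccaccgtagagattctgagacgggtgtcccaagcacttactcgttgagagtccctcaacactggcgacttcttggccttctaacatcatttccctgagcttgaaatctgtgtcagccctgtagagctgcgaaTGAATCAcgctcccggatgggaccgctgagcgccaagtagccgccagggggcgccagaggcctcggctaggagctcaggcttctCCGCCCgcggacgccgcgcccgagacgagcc

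Spock2 promoter, chr10:60106007-60106256, plus strand: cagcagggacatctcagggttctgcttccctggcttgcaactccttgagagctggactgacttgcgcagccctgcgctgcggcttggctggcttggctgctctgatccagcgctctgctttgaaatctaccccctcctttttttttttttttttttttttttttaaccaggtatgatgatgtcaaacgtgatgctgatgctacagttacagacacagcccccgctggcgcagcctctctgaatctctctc

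Sdc4 promoter, chr2:164443189-164443438, minus strand: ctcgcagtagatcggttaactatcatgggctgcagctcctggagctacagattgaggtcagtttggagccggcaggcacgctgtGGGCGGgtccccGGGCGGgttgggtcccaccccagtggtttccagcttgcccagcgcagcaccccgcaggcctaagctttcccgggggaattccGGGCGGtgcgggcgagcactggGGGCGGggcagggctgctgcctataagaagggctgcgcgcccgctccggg

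The Spock3 and Spock2 windows held 0 matches, the Spock1 window held an AP-1 site and a GC box, and the Sdc4 window held 4 GC boxes. RefSeq windows were found for 68 of the 105 member genes. Some genes have more than 1 window, and windows of the same gene are not independent. Of 21 windows of members that rose, from 15 genes, 15 windows held a GC box (71.4%). Beside this stand 39 of 81 windows of all members (48.1%) and 32.7% of 32851 RefSeq windows. Of 9 windows of members that fell, from 6 genes, 4 held a GC box. The CRE half-site was in 2 of the 21 windows and in 0 of the 9, beside 17.8% of all windows. The AP-1 site was in 1 and 0, beside 6.75%, and the TATA box in 0 and 2, beside 12.4%. These counts describe letters in the windows and were not tested.

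Cell-surface proteoglycans were led by Sdc4. Syndecan-4 is a membrane proteoglycan with heparan sulfate chains that sits in focal adhesions together with integrins. Sdc4 values ran from 0.14 to 0.77 with a median of 0.38, and all 9 arrays with a value were above 0. The fitted ratio was 0.51 ± 0.06 (SE, n = 9, adjusted p = 0.00012). Cy3 arrays spanned 0.14 to 0.66 and Cy5 arrays 0.57 to 0.77, overlapping at their edges. Sdc1 (0.12 ± 0.07, adjusted p = 0.205) and Sdc2 (-0.11 ± 0.06, adjusted p = 0.196) did not pass, though Sdc2 did on the Cy3 arrays alone, at -0.30 (adjusted p = 0.023). Sdc3 had values on 2 arrays only, -0.24 and 0.03. Glypicans are tied to the membrane by a lipid anchor. Gpc3 rose by 0.18 ± 0.05 (n = 10, adjusted p = 0.016) and Gpc4 by 0.19 ± 0.06 (n = 11, adjusted p = 0.028). Gpc1 (-0.06 ± 0.04) and Gpc5 (0.06 ± 0.09) did not pass, and Gpc6 had no value on any array. Gpc4 lost its call when array 4, 5, 7 or 8 was left out, without the dye term (adjusted p = 0.071) and by the exact test (adjusted p = 0.10). Its ratio was 0.05 on the Cy3 arrays alone (adjusted p = 0.621) and 0.32 on the Cy5 arrays (adjusted p = 0.070). Gpc3 lost its call without arrays 1 and 6 (adjusted p = 0.059) and without arrays 3, 4, 5 and 10 (0.12, adjusted p = 0.088). Its ratio was 0.13 on the Cy3 arrays alone (adjusted p = 0.129) and 0.23 on the Cy5 arrays (adjusted p = 0.164).

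All 4 fibulin and fibrillin genes on the array were tested and rose, beside 14.5% of all genes, with a median of 0.246. These glycoproteins build and cross-link elastic fibres and microfibrils. Fbln5 rose by 0.29 ± 0.05 (n = 11, adjusted p = 0.00056), Fbln2 by 0.24 ± 0.06 (n = 10, adjusted p = 0.0066), Fbln1 by 0.22 ± 0.06 (n = 11, adjusted p = 0.0085) and Fbn2 by 0.25 ± 0.09 (n = 11, adjusted p = 0.042). Fbln1, Fbln2 and Fbn2 were each below 0 on 1 or 2 arrays. Fbln5 differed between dye orientations. Its Cy3 values spanned -0.16 to 0.34 and its Cy5 values 0.41 to 0.67, with no overlap, and the Cy3 arrays alone gave 0.07 (adjusted p = 0.485). By the exact test Fbln5 had an adjusted p of 0.055. Fbn2 lost its call when array 2, 5, 6, 7, 8, 9 or 11 was left out, and had a ratio of 0.42 without arrays 3, 4 and 10.

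Of 25 collagen genes on the array, 18 were tested, 3 rose, 1 fell and 14 did not pass. The shares were 16.7% and 5.56% of those tested, beside 14.5% and 14.3% of all genes. Collagens XI and V are minor fibrillar collagens that set the width of collagen fibrils. Col11a1 values ran from -0.02 to 0.56 with a median of 0.31, and 10 of 11 arrays were above 0. Its ratio was 0.31 ± 0.05 (n = 11, adjusted p = 0.00099). A second Col11a1 probe had values on 5 arrays, all above 0, from 0.13 to 0.84, and is averaged in where present. Col5a1 ran from 0.07 to 0.47 with a median of 0.19, above 0 on all 10 arrays with a value, and had a ratio of 0.24 ± 0.05 (adjusted p = 0.0021). Chains that assemble with them did not pass, with ratios of 0.01 ± 0.05 for Col11a2 and -0.02 ± 0.08 for Col5a2.

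Col19a1 was the collagen that fell. It codes for a collagen of the group with interrupted triple helices, which neurons of the forebrain also make. Its values ran from -1.01 to -0.12 with a median of -0.66, and all 9 arrays with a value were below 0. The ratio was -0.60 ± 0.10 (n = 9, adjusted p = 0.00078), with means of -0.60 on Cy3 arrays and -0.61 on Cy5 arrays. Col6a2, a chain of the microfibrillar collagen VI, rose by 0.33 ± 0.11 (n = 9, adjusted p = 0.044), with a range from -0.29 to 0.87. Its call was lost when array 1, 2, 6, 7, 8, 9 or 11 was left out, and without arrays 3, 4, 5 and 10 its ratio was 0.56. Col6a1, which assembles with it, had a ratio of 0.05 ± 0.04. Col6a3 had a ratio of 0.06 ± 0.06 as the mean of probes that disagree: probe 368 rose by 0.25 (adjusted p = 0.035), while probe 369 lay at -0.07 and probe 305 had no value.

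Basement membrane collagens did not pass. Col4a1 had a ratio of -0.04 ± 0.05 and Col4a2, its partner in the common collagen IV network, one of 0.05 ± 0.04 (both n = 11). Col4a3 lay at -0.05, Col4a5 at 0.11 and Col4a6 at 0.11, and Col15a1 (0.14 ± 0.05, adjusted p = 0.058) and Col18a1 (-0.09 ± 0.05) also missed the threshold. The other tested collagens were Col12a1 (0.12), Col13a1 (0.02) and Col14a1 (0.16). Col3a1, the main collagen beside collagen I in meninges, had a value on 1 array, 0.21.

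Among 7 tested laminin chains 2 rose (28.6%, beside 14.5% of all genes) and 5 did not pass. Laminins are trimers of an alpha, a beta and a gamma chain. Lamb1 values ran from 0.01 to 0.55 with a median of 0.14, above 0 on all 11 arrays, and the ratio was 0.22 ± 0.06 (adjusted p = 0.014). The Lamb1 ratio was 0.13 (adjusted p = 0.112) without arrays 3, 4, 5 and 10. Lama2, the alpha chain of vascular and muscle basement membranes, rose by 0.20 ± 0.07 (n = 10, adjusted p = 0.040). Its call was lost when array 1, 2, 3, 6, 7 or 11 was left out. Lamc1, the gamma chain shared by most laminins, had a ratio of 0.04 ± 0.06, and Lama4 of vessels one of 0.06 ± 0.05. Lama1 (-0.15 ± 0.06, adjusted p = 0.086), Lama3 (-0.11) and Lamb2 (0.14) did not pass. Lamb2 passed without arrays 3, 4 and 10, at 0.26 (adjusted p = 0.0021). It lay at -0.45 and -0.29 on arrays 3 and 10, so leaving these out raised the ratio. Lama5 was above 0 on all 7 arrays with a value, from 0.05 to 0.40, too few for the test. With values on at least 5 arrays required, Lama5 was called higher, at 0.23 (adjusted p = 0.029).

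Tnc, a matrix glycoprotein of radial glia and growing axons, fell. Its values ran from -0.70 to 0.015 with a median of -0.20, and 10 of 11 arrays were below 0. The ratio was -0.23 ± 0.05 (n = 11, adjusted p = 0.0039). Its probes differ in how they vary: probe 963 fell by 0.31 ± 0.09 and reached -1.26 on array 4, whereas probe 4405 lay at -0.14 ± 0.05 (adjusted p = 0.056) with a value of -0.14 there. On the Cy3 arrays alone the ratio was -0.08 (adjusted p = 0.297). Tnr, the tenascin of perineuronal matrix, had a value on 1 array, 0.24.

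**Figure D3:**
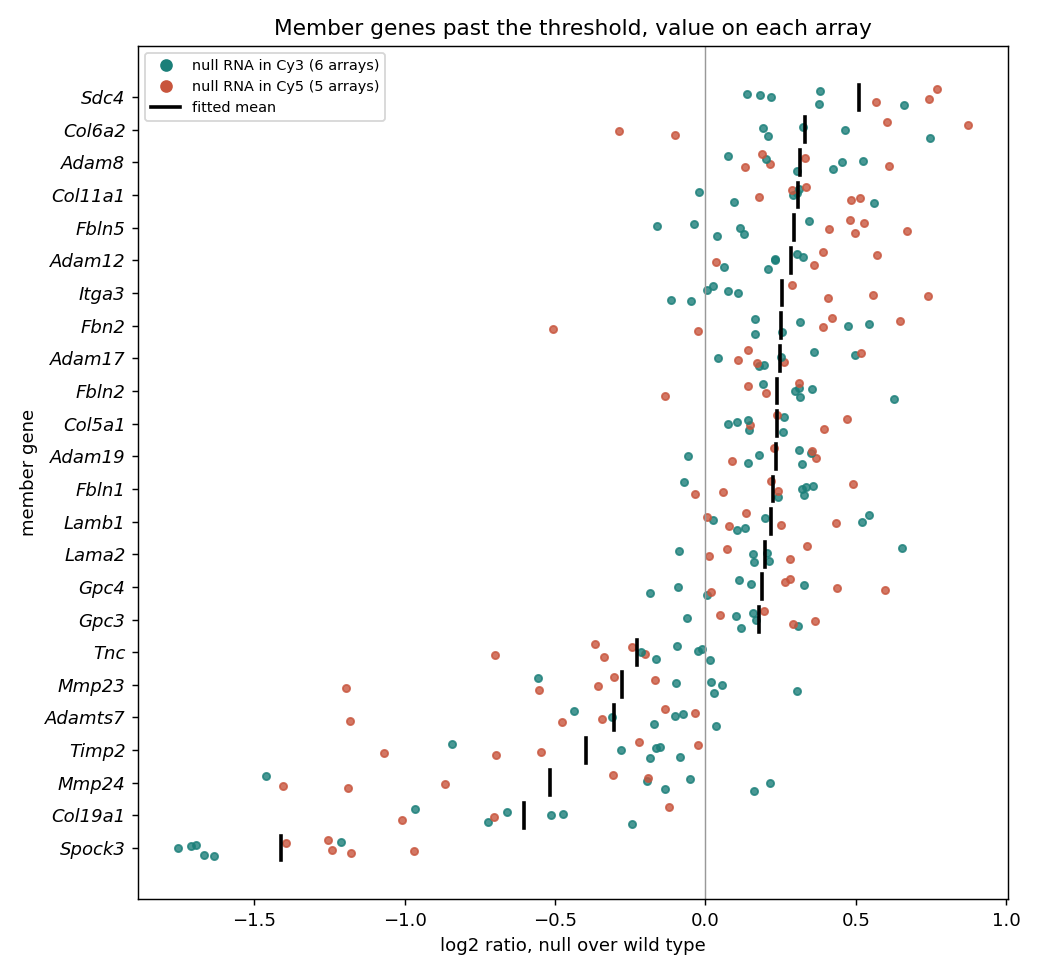
Log2 ratio of null over wild type (horizontal axis) on each array for the 24 member genes past the threshold (vertical axis, ordered by ratio), coloured by the dye of the null RNA, with a black bar at the fitted mean. Of these genes 9 lie on a single side of 0 on every array with a value; Mmp24, Mmp23, Adamts7 and Timp2 have a few arrays far below the rest.

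Few integrin genes passed the test. Of 7 tested alpha chains 1 rose (14.3%, beside 14.5% of all genes), and of 2 tested beta chains neither passed. Itga3, a laminin receptor chain on radial glia and migrating neurons, rose by 0.25 ± 0.05 (n = 10, adjusted p = 0.0025). Its values split by dye orientation without overlap, spanning -0.11 to 0.11 with null RNA in Cy3 (6 arrays) and 0.29 to 0.74 in Cy5 (4 arrays). The Cy3 arrays alone gave 0.01 (adjusted p = 0.919), and without the dye term the adjusted p was 0.082. The other alpha chains lay between -0.07 (Itgav) and 0.13 (Itga2b). Itgb1, the beta chain shared by most matrix integrins, had values on 4 arrays, from -0.55 to 0.31, and was not tested. Itgb4, which pairs with the alpha 6 chain, was above 0 on all 7 arrays with a value, from 0.17 to 0.59, too few for the test. With at least 5 arrays required it was called higher, at 0.38 (adjusted p = 0.0029). The ratio of Itgb2, the beta chain of leukocyte integrins, was -0.29 ± 0.18 (n = 11, adjusted p = 0.242), with values from -1.52 to 0.83. Itgb6, the other tested beta chain, had a ratio of 0.08 ± 0.11 (n = 11, adjusted p = 0.629). It passed without arrays 3, 4 and 10, at 0.30 (adjusted p = 0.0036). Its values on these arrays were -0.52, -0.33 and -0.63, so leaving them out raised the ratio.

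Of 10 tested Adam genes 4 rose, 0 fell and 6 did not pass, whereas 14.5% of all genes tested rose and 14.3% fell. Adam8, a protease of myeloid cells and of activated glia, ran from 0.08 to 0.61 with a median of 0.31 and was above 0 on all 11 arrays. Its ratio was 0.31 ± 0.05 (adjusted p = 0.00095). Adam17, the sheddase of tumour necrosis factor and of several growth factor precursors, ran from 0.04 to 0.52 with a median of 0.20, also above 0 on all 11 arrays (ratio 0.25 ± 0.05, adjusted p = 0.0029). Adam12 ran from 0.04 to 0.57 with a median of 0.27 on 10 arrays, all above 0 (ratio 0.28 ± 0.05, adjusted p = 0.0020). Adam19, a close relative of Adam12, had a ratio of 0.23 ± 0.05 (n = 10, adjusted p = 0.0055). For these 4 genes the mean ratios of the Cy3 and Cy5 arrays lay between 0.21 and 0.34, though the Cy5 arrays alone called none of them.

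The Adam genes of neurons that lack protease activity did not pass. Adam11 lay at -0.01, Adam22 at 0.12 and Adam23 at -0.16 (adjusted p = 0.070). Adam11 was below 0 on 9 of 11 arrays, with 0.82 on array 4 and 0.34 on array 10. Without arrays 3, 4 and 10, which leaves these high values out, it was called lower, at -0.17 (adjusted p = 0.028). Without arrays 3, 4, 5 and 10 it was also called lower, at -0.205 (adjusted p = 0.017). Adam9 (0.03) and Adam15 (-0.04) were near 0 in the fit over all arrays. Adam10, the main shedding protease of Notch and of the amyloid precursor, had values on 7 arrays, from -0.36 to 0.70, and was not tested. Adamts7 fell by 0.31 ± 0.09 (n = 11, adjusted p = 0.017). Its values ran from -1.18 to 0.03 with a median of -0.17, below 0 on 10 of 11 arrays, and without arrays 3, 4, 5 and 10 the ratio was -0.10 (adjusted p = 0.135). On the Cy3 arrays alone it was -0.18 (adjusted p = 0.091). Adamts5, a protease of hyaluronan-binding proteoglycans, had a ratio of -0.09 ± 0.05.

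Of 8 tested matrix metalloproteases 2 fell (25.0%, beside 14.3% of all genes) and 6 did not pass. Mmp24, a membrane-bound metalloprotease of the nervous system, fell by 0.52 ± 0.15 (n = 11, adjusted p = 0.017). Its values were -1.19, -1.41, -0.87 and -1.46 on arrays 3, 4, 5 and 10, and between -0.31 and 0.21 on the other 7. Mmp23 fell by 0.28 ± 0.09 (adjusted p = 0.033) with a similar split, from -1.20 to -0.36 on those 4 arrays and from -0.31 to 0.31 on the others. Without arrays 3, 4, 5 and 10, chosen after seeing the data, the ratios were -0.13 for Mmp24 (adjusted p = 0.126) and -0.09 for Mmp23 (adjusted p = 0.241). By the exact test the adjusted p was 0.078 for Mmp24 and 0.144 for Mmp23. On the Cy3 arrays alone Mmp24 had a ratio of -0.24 (adjusted p = 0.376) and Mmp23 one of -0.04 (adjusted p = 0.789), and the Mmp23 call was also lost without the dye term (adjusted p = 0.094) and when array 3, 4, 7 or 10 was left out. The gelatinase Mmp2 (-0.03 ± 0.05), its activator Mmp14 (0.16 ± 0.08, adjusted p = 0.138), Mmp3 (-0.03), Mmp11 (0.04), Mmp16 (-0.14) and Mmp17 (-0.02) did not pass. Mmp14 passed without arrays 3, 4 and 10, at 0.26 (adjusted p = 0.0034). It lay at -0.26 and -0.40 on arrays 3 and 10, so leaving these out raised the ratio. Mmp9 had 8 values, from -0.27 to 0.17, but too few of a dye orientation to be tested.

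Timp2, an inhibitor that also takes part in the activation of Mmp2, fell. Its values ran from -1.07 to -0.03 with a median of -0.22, and all 11 arrays were below 0. The ratio was -0.40 ± 0.09 (n = 11, adjusted p = 0.0051), and -0.15 (adjusted p = 0.031) without arrays 3, 4, 5 and 10, where it lay between -1.07 and -0.55. Timp3 (0.08 ± 0.11) and Timp4 (-0.06 ± 0.08, n = 8) did not pass. Without arrays 3, 4 and 10 Timp3 passed, at 0.28 (adjusted p = 0.037). It also passed without arrays 3, 4, 5 and 10, at 0.42 (adjusted p = 0.00034). On each of these arrays it was below 0, so leaving them out raised the ratio.

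**Figure D4:**
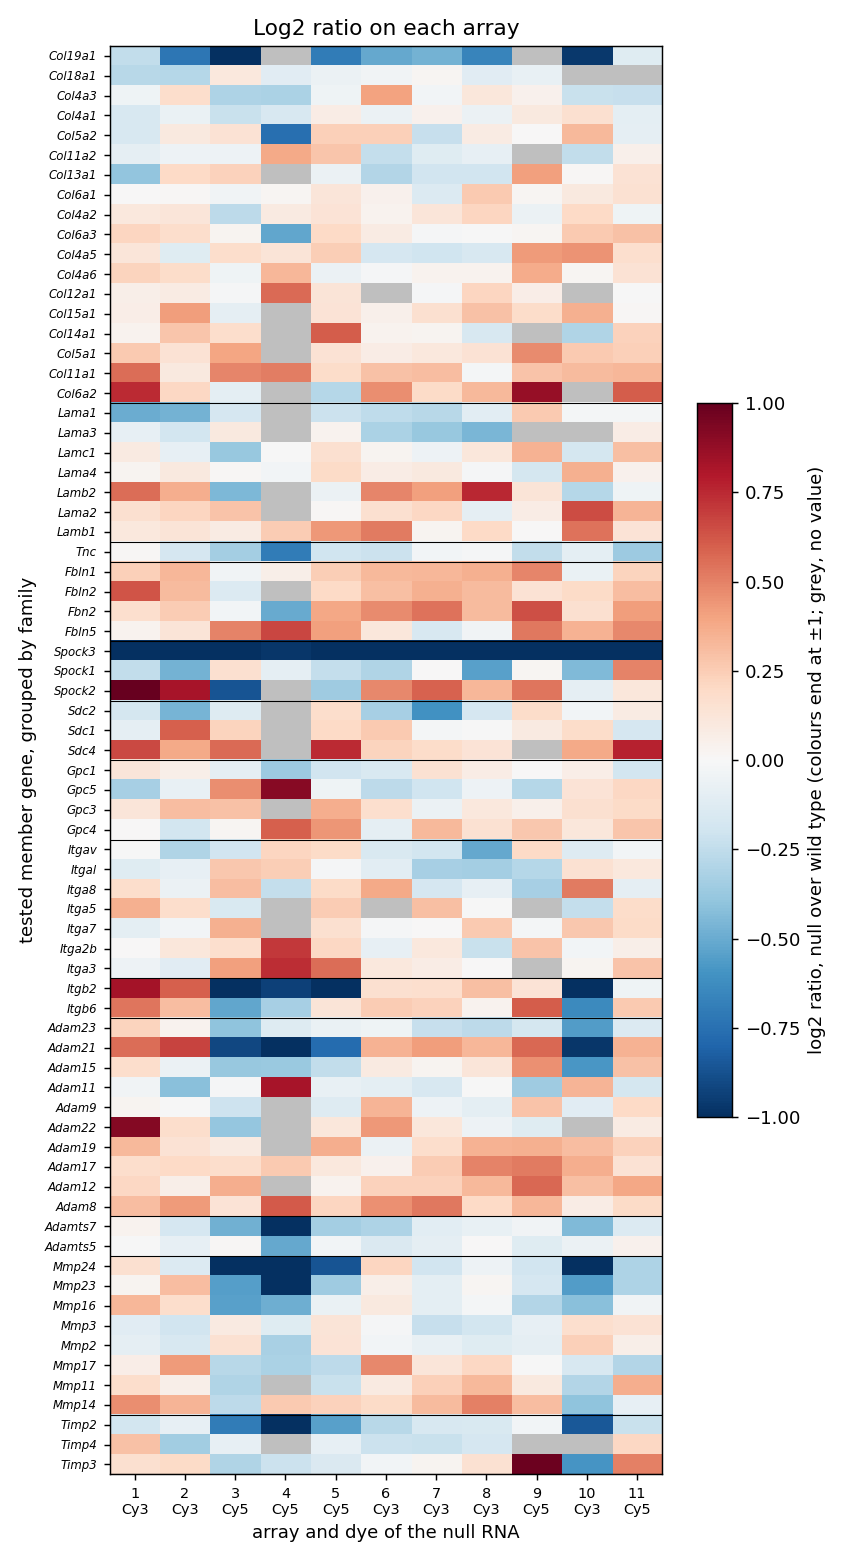
Log2 ratio of null over wild type of the 72 tested member genes (rows, grouped by family, in the order collagens, laminins, tenascin, fibulins and fibrillins, Spock, syndecans, glypicans, integrins, Adam, Adamts, Mmp and Timp) on the 11 arrays (columns), with blue below 0, red above 0, colours ending at -1 and 1, and grey for no value. Spock3 is blue on all arrays, and Itgb2, Adam21, Mmp24 and Timp2 are darkest on arrays 3, 4, 5 and 10.

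Several members were far lower on arrays 3, 4, 5 and 10 than elsewhere. Itgb2 and Adam21 were singled out after their values were seen. Itgb2 had values of -1.52, -0.94, -1.28 and -1.14 on these arrays and between -0.05 and 0.83 on the other 7. Adam21 had -0.91, -1.28, -0.77 and -0.98, and between 0.33 and 0.68 on the others. Without these 4 arrays, which were chosen for such low values, both turned sign and passed, at 0.23 for Itgb2 (adjusted p = 0.047) and 0.46 for Adam21 (adjusted p = 0.00012), as did Adam15 at 0.22 (adjusted p = 0.0044). Array 10 carried the null RNA in Cy3 and arrays 3, 4 and 5 in Cy5. The median of 11 neuron markers was -0.39, -0.10, -0.12 and -0.21 on arrays 3, 4, 5 and 10, and between -0.07 and 0.11 on the others. The part of neuronal RNA or of these arrays in the low values was not tested. The median of the 17 members that rose was above 0 on every array, from 0.17 to 0.52. The median of the 7 that fell was between -1.13 and -0.55 on arrays 3, 4, 5 and 10, and between -0.31 and 0.02 on the others. Both groups were called on these same 11 arrays, so the signs of their medians follow in part from that choice.

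Members were also compared between dye orientations. No member had a dye term past an adjusted p of 0.05 by limma (lowest 0.062), and neither did any of the 4812 genes, but 22 of 72 members (30.6%) had one at an unadjusted p under 0.05, beside 22.6% of all genes. All 24 called members had mean ratios of the same sign in both orientations, which follows in part from their being called on the same arrays. On the 6 Cy3 arrays alone 16 of 82 tested members rose and 6 fell, beside 10.4% and 10.2% of 5087 genes. On the 5 Cy5 arrays 3 of 67 rose and 3 fell, beside 3.37% and 5.67% of 4565 genes. Of the 24 called members, 12 higher and 2 lower were also called on the Cy3 arrays.

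**Figure D5:**
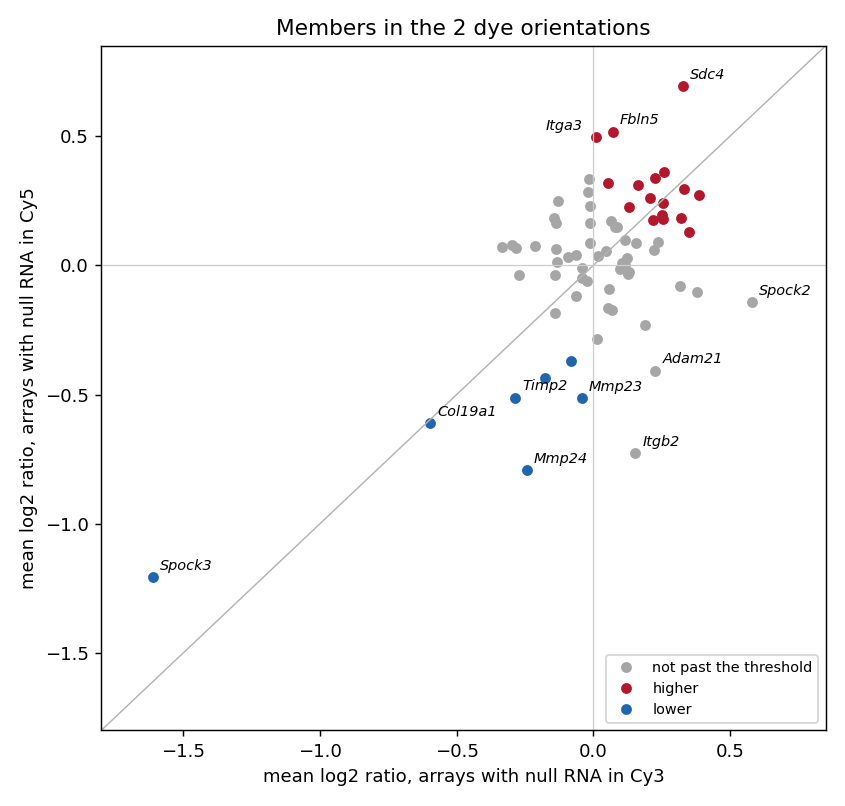
Mean log2 ratio of null over wild type of each tested member on the arrays with null RNA in Cy3 (horizontal axis) and in Cy5 (vertical axis), with the line of equal values. Red members rose and blue members fell in the fit over both orientations; Spock3, Col19a1 and Sdc4 are far from 0 on both axes, whereas Itga3, Mmp23, Gpc4, Fbln5 and Tnc are within 0.1 of 0 on the Cy3 axis.

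Other genes of matrix biology were read from lists chosen for their function. Shares of each list that rose and fell stand beside 14.5% and 14.3% of all genes tested. Of 32 tested genes for other matrix proteins and proteoglycans 11 rose and 3 fell (34.4% and 9.38%, median 0.089). The neuronal proteoglycan Cspg5 fell by 0.43 ± 0.04 and elastin, Eln, by 0.32 ± 0.05, while the small leucine-rich proteoglycans Ogn (0.58 ± 0.07) and Fmod (0.47 ± 0.07) rose. Of 21 genes for matrix synthesis and cross-linking 4 rose and 1 fell (19.0% and 4.76%, median 0.024). The hyaluronan synthase Has3 fell by 0.45 ± 0.06. The cross-linking enzymes Loxl1 (0.28 ± 0.04) and Lox (0.29 ± 0.06) and the hydroxylase Plod1 (0.19 ± 0.06) rose. Of 21 genes for other matrix receptors and adhesion complex proteins none rose and 9.52% fell (median -0.060). Cd47 (-0.31 ± 0.08) and talin, Tln1 (-0.19 ± 0.06), fell and 19 did not pass. Of 12 other extracellular proteases and inhibitors 3 rose and 1 fell (25.0% and 8.33%, median 0.010). The coagulation inhibitor Tfpi (0.36 ± 0.04), the peptidase neprilysin, Mme (0.36 ± 0.06), and the Mmp inhibitor Reck (0.37 ± 0.07) rose. The protease inhibitor Spint2 fell (-0.26 ± 0.05).

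Markers of cell types that make matrix were read in the same way, and their shares stand beside 14.5% higher and 14.3% lower of all genes. Of 13 tested meningeal and choroid plexus markers 6 rose and 1 fell (46.2% and 7.69%, median 0.207). Ogn, Col1a1 (0.42 ± 0.08), Mgp, Igfbp2, Foxc1 and Igf2 rose, and Folr1 fell (-0.148 ± 0.052). Ttr, Ptgds, Aldh1a2, Dcn, Foxd1 and Slc22a6 did not pass. Ogn and Dcn also stand in the list of other matrix proteins. The array medians of the 13 markers lay between -0.08 on array 4 and 0.33 on array 10. The medians of the fibulins and fibrillins lay between -0.03 on array 3 and 0.51 on array 9, and those of the 18 collagens between -0.02 on array 3 and 0.16 on array 10. Of 15 vascular markers 3 rose and 1 fell (20.0% and 6.67%, median 0.064, array medians from -0.06 to 0.19). Abcb1a (0.235 ± 0.063), Abcc9 (0.273 ± 0.071) and Kcnj8 (0.166 ± 0.057) rose and Rgs5 (-0.309 ± 0.094) fell. The other 11 did not pass, among them the endothelial genes Cdh5 (0.10 ± 0.05) and Pecam1 (0.08 ± 0.04). Of 11 microglia and macrophage markers 7 rose and 3 fell (median 0.632, array medians from 0.32 to 0.77), beside Adam8 above 0 on all arrays and Itgb2 on both sides of 0. Of 16 astrocyte and radial glia markers 7 rose and 1 fell (median 0.145). Of 11 neuron markers 1 rose and 4 fell (median -0.060), of 8 neocortex markers 4 rose and 4 did not pass, and of 8 oligodendrocyte lineage markers 2 rose and 2 fell. The part of these cell types in the members' ratios was not tested.

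The 33 member genes that were not tested comprise 6 with no value on any array (Adam3, Adam5, Col5a3, Gpc6, Itgb3 and Mmp13), 13 with 1 to 3 values and 14 with 4 to 8 values. Member probes had more empty cells than the array as a whole, 25.7% against 17.3%. Among the untested genes with 7 values, Mmp12, a macrophage metalloprotease, ran from -0.11 to 0.75, Col7a1 from -0.67 to 0.35 and Adam24 from -0.24 to 1.28. The median standard error over the 72 tested members was 0.061.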

How the data were processed

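RNA of null neocortex and pooled wild-type neocortex was hybridised on 11 two-colour arrays, and samples were grouped from the labels alone. The values are log2 ratios as deposited by the authors and base 2 is assumed. The sources used here do not give how they were corrected for background or normalized, or their direction. Column medians lay between -0.045 and 0.044. Scanner intensities were not used here, so signal over background is unknown, and precision is limited by how many arrays there are. The mutated gene is not reported here.

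Probe names came from the platform annotation (1 symbol for 6269 probes, several for 6, none for 581); 6250 were updated through Entrez identifiers to a RefSeq table of GRCm38.p6. Probes of a gene were averaged per array. Genes with values on at least 8 arrays and 3 of each dye orientation were fitted with limma 3.58.1 in R 4.3.3 (mean ratio and a dye term, moderated variances, Benjamini-Hochberg adjustment over all genes, threshold 0.05, two-sided). Errors are standard errors of the fit. The exact test enumerates all 2048 sign patterns of 11 arrays. The fit was tested on simulated data.

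The members and lists were chosen with earlier results of these data known. Named are all members past the threshold and all Spock, Sdc, Gpc, Timp and tenascin members, with lowest, median and highest values for the 12 of smallest p and steady sign, and up to 4 of each matrix list. Others were named to fill out the families, and some members that did not pass or were not tested are not named. Alternatives varied the dye term, arrays, centring, scaling, weights, filters, variances, threshold and test.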

Additional observations from a re-analysis of the deposited data

Results flagged for a closer look

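Among 28 tested member genes with values on 8 to 10 arrays, 1 had a value set apart from the rest by a wide gap. Col12a1, a collagen that decorates fibrils, had a ratio of 0.57 on array 4, while its other 8 values lay between -0.01 and 0.22. Array 4 had the widest spread of all arrays (SD 0.563 over probes, against 0.266 to 0.360 on the others). Chance alone sets apart about 1 in 20 such groups.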

How the results depend on the processing

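No paired analysis was possible because all arrays belong to a single group set against a common pool. All 24 called member genes kept their sign under each of the up to 26 alternatives that could be fitted. Changes of filter, variances or threshold leave the ratio of a gene as it is, so its sign could not turn there. Fits without a single array share most values with the main fit. Spock3, Sdc4, Col19a1 and Col11a1 also stayed past the threshold under all of their alternatives. In all fits that left out a single array 19 of the 24 did so, though Sdc4 and Col19a1 could be tested in only 8 of those fits. Sdc4 and Col19a1, with 20 alternatives each, could also not be fitted on the Cy5 arrays alone or without arrays 3, 4, 5 and 10. Leaving out single arrays gave 13 to 19 member genes higher and 5 to 8 lower (13 to 20 and 5 to 8 probes). Against 17 higher and 7 lower genes (18 and 7 probes), the Cy5 arrays alone gave 3 and 3 genes (3 and 2 probes) and an adjusted p of 0.01 gave 11 and 4 (11 and 3). Without arrays 3, 4 and 10, 27 genes and 29 probes were higher. Without arrays 3, 4, 5 and 10, an alternative chosen after seeing the data, 4 genes and 4 probes were lower. Only probes with values on all arrays gave 8 higher genes and 8 higher probes, with 44 members tested. There 8 of the 44 member genes were higher and 6 lower, beside 490 and 586 of 3696 genes. The member median was then -0.014, beside -0.02 for all genes. Unmoderated variances gave 4 lower genes and 4 lower probes. Of the 48 tested members that did not pass, 31 changed sign under at least 1 alternative, and Itgb2, Adam21 and Adam15 passed with the sign turned without arrays 3, 4, 5 and 10. Among the Spock, syndecan, glypican, Timp and tenascin genes the changes were on the Cy5 arrays Spock1 (0.070), Spock2 (-0.143) and Sdc2 (0.077); on the Cy3 arrays Gpc1 (0.053), Gpc5 (-0.128) and Timp3 (-0.013); Gpc5 also without arrays 3, 4 and 10 (-0.111), without arrays 3, 4, 5 and 10 (-0.111) and with array weights (-0.005). With single arrays left out, Gpc5 ran from -0.021 to 0.128 and Timp3 from -0.026 to 0.134. Apart from the smaller numbers of arrays or genes, the cause was not tested.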
